A study of Mus musculus with 45 samples.

Results

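The lung lines of YEJG origin were compared with those of YEJH origin. YEJG and YEJH are parental lines of mouse mammary tumour cells carrying the polyoma middle T oncogene (PyMT+). Lines were chosen by the cell line named on each label. They were YEJG-M1 and YEJG-M2 on one side and YEJH-M1 to YEJH-M5 on the other, 7 of the 15 lines and 21 of the 45 libraries of the series.

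The study measured RNA in PyMT+ lines to compare the level of Upp1 between cells from tumours of the mammary fat pad and cells from lung. Cells of a parental line had been transplanted into the fat pad, where they grew into tumours that were later cut out. The lung lines stem from micrometastases of the time after this surgery. The series also holds 1 fat-pad line of YEJG origin (YEJG-FP), 5 of YEJH origin (YEJH-FP1 to YEJH-FP5) and both parental lines. PolyA RNA of lines grown in dishes to near confluence was sequenced in 3 technical libraries per line.

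Both groups are PyMT+ mouse lines from lung, no treatment is named in their labels, and they differ by parental line. The sex, age and strain of the mice were not given in the labels, nor whether a line is 1 clone. YEJG origin is known from 2 lung lines, and technical libraries are not independent samples. Counts were therefore added up over the 3 libraries of each line, and lines were the unit of comparison. Levels are counts-per-million values (CPM), scaled with TMM factors. The study describes 6 independent lines from separate mice, fewer than the 7 lung lines here, and the labels do not say which lines these are. The tests took YEJG-M1 and YEJG-M2 as independent, and whether they came from 1 mouse was not given. Lung and fat-pad lines that may share a mouse were not paired. P-values measure only the spread between the lines compared.

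Between 9723860 and 16922450 reads per lung library fell on genes, which summed to between 38265130 reads in YEJH-M1 and 45958820 in YEJH-M2. Library 2 of YEJH-M3 stood apart from the other lung libraries. Of its reads, 13.3% lay outside genes and 15.18% did not align, against 6.189% and 5.266% in library 1 of the same line. Without it, 5819 genes passed the test between the origins, against 5475 with it, and 5406 of these 5475 genes passed in the same direction. Library 1 of YEJG-M1 carries another line's name in its library name. Library names carry 1 of 2 prefixes, which are taken here as sequencing runs A and B, although no label says so. After centring on the lung libraries of its run, its profile across genes correlated at 0.788 and 0.841 with the other YEJG-M1 libraries, at 0.637 to 0.715 with those of YEJG-M2 and at -0.651 to -0.279 with those of YEJH lines. It was kept as YEJG-M1, and without it 5262 genes passed. The YEJH-M3 libraries are labelled as lung metastases and those of the other lung lines as whole lung.

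Epithelial cells are held together by adherens junctions built on E-cadherin, by tight junctions and desmosomes, and they rest on a basement membrane of laminin, to which hemidesmosomes anchor their keratin filaments. In an epithelial to mesenchymal transition these structures are taken apart, vimentin replaces much of the keratin network, and the transcription factors of the Zeb, Snail and Twist families repress junction genes. Carcinoma cells can also hold intermediate states, in which only some of these genes change.

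The origins differed in epithelial and mesenchymal genes. Most genes of cell junctions, several keratins and the laminin genes Lama3 and Lamb3 were lower in both YEJG lung lines than in all 5 YEJH lung lines, while vimentin and the transcription factors Zeb1 and Zeb2 were higher in both. Most tested genes of cholesterol synthesis were lower in YEJG lung lines, as were some of ErbB and Notch signalling and interleukin 1 alpha. Many genes on a joint list of amino acid synthesis and the integrated stress response were higher, as was colony-stimulating factor 1. Some genes of glycolysis and the response to low oxygen were higher too. All of this was measured in bulk RNA, in which fewer cells of a kind and less RNA per cell cannot be told apart.

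Of 15892 genes tested, 5475 (34.5%) passed an adjusted p of 0.05 in edgeR's quasi-likelihood test after Benjamini-Hochberg adjustment. Among them 2650 (16.7% of genes tested) were higher and 2825 (17.8%) lower in YEJG lines. The balance depended on scaling, since 3255 were higher and 2437 lower with upper-quartile factors, 3190 and 2420 with library totals, and 2679 and 2792 with RLE factors. For 7797 genes (49.1%) both YEJG lines lay above or both below all 5 YEJH lines, and 5431 of the genes that passed were among these. Changes of over 2-fold were seen in 1912 genes that passed, 804 higher and 1108 lower. The median log2 fold change over all genes tested was 0.0013. With YEJG-M1 left out 3123 genes passed, and with YEJG-M2 left out 4012. In these fits 1 YEJG line is left, and the spread is that of the YEJH lines. With the libraries of a single sequencing run, 4763 genes passed from run A and 4559 from run B. No gene that passed with both runs together passed in the opposite direction in either.

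In a principal component analysis of 17110 genes over all 15 lines, the first component held 39.9% of the variance. YEJG-M1 lay at 108 and YEJG-M2 at 93.6 on it, YEJG-FP at 26.1, and the other 12 lines between -28.8 and -10.3. The second component, with 16.3% of the variance, placed the parental lines YEJG at 79.6 and YEJH at 34.5. On the first component the YEJH lung lines lay between -22.3 and -10.3 and the YEJH fat-pad lines between -21.2 and -16, while both YEJG lung lines lay far from every other line.

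**Figure D1:**
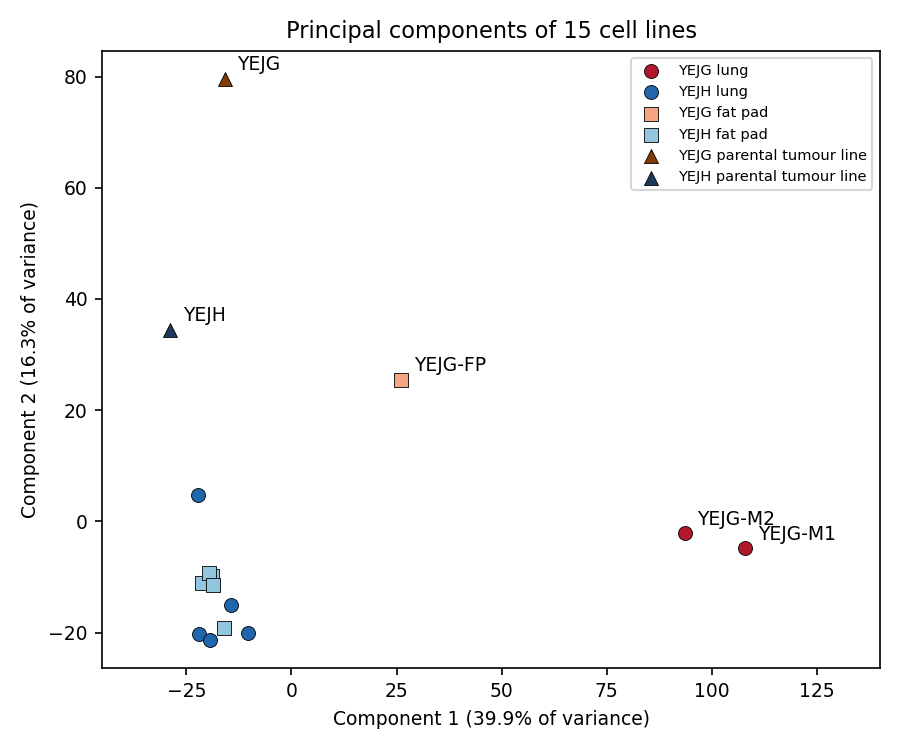
Principal components of 15 cell lines from log2 CPM of 17110 genes, with 1 point per line, component 1 on the horizontal and component 2 on the vertical axis, coloured by origin and site. YEJG-M1 at 108 and YEJG-M2 at 93.6 stand apart from YEJG-FP at 26.1 and from the other 12 lines, which lie between -28.8 and -10.3 on component 1.

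Most genes of cell junctions were lower in YEJG lines. Of 46 listed genes of epithelial junctions and their regulators 42 were tested, and 34 were lower in YEJG lines, 0 higher and 8 did not pass. Their median log2 fold change was -1.70. Cdh1, which encodes E-cadherin, stood at 60.6 CPM in YEJG-M1 and 104 in YEJG-M2, against 361, 342, 450.3, 402 and 388 in YEJH-M1 to YEJH-M5. Both YEJG lines were below all YEJH lines, with a log2 fold change of -2.24 ± 0.21 (SE) (adjusted p = 0.000262, edgeR quasi-likelihood, Benjamini-Hochberg).

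Epcam, an adhesion molecule of epithelial cells, stood at 127 CPM in YEJG-M1 and 198 in YEJG-M2, against 678, 578, 630.4, 609 and 621 in YEJH-M1 to YEJH-M5. The groups did not overlap, and the log2 fold change was -1.94 ± 0.17 (SE) (edgeR quasi-likelihood, Benjamini-Hochberg, adjusted p = 0.000185). Of the tight junction genes, Cldn3 had 50.7 and 97.1 CPM against 261 to 338, Cldn4 27.8 and 64.5 against 192 to 271, and Cldn7 16.7 and 19.2 against 66.4 to 146 in the YEJH lines. They had log2 fold changes of -1.94, -2.31 and -2.59. Of the genes that mark the corners where 3 cells meet, Lsr had 27.2 and 51.4 CPM against 181 to 200, and Ildr1 0.422 and 0.155 against 5.07 to 14.6. The desmosomal cadherin Dsg2 had 3.26 and 3.4 CPM against 12.7 to 36.5 and a log2 fold change of -2.84. Tjp1, the scaffold protein ZO-1, had 178 and 203 CPM against 206 to 266 in the YEJH lines and did not pass (log2 fold change -0.26 ± 0.11 (SE), adjusted p = 0.102, edgeR quasi-likelihood, Benjamini-Hochberg).

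Some regulators of the epithelial state fell, and others on the list did not pass. Esrp1, an epithelial splicing factor, had 32.5 and 51.5 CPM against 136 to 212 in the YEJH lines, and Grhl2, a transcription factor of epithelial genes, had 26.2 and 35 CPM against 96.2 to 123. Their log2 fold changes were -1.98 and -1.84. The epithelial transcription factor Elf3 had a log2 fold change of -1.51. Esrp1 and Grhl2, and Zeb2 below, fall outside the rule for named genes and were chosen after their values were seen.

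Keratins are the intermediate filaments of epithelia. Of 11 tested, 6 fell, 0 rose and 5 did not pass, with a median log2 fold change of -0.96. Krt19 stood at 14 CPM in YEJG-M1 and 15 in YEJG-M2, against 144, 168, 202, 168 and 178 in YEJH-M1 to YEJH-M5. Every YEJH line was at least 9 times the higher YEJG line, with a log2 fold change of -3.57 ± 0.14 (SE) (edgeR quasi-likelihood, Benjamini-Hochberg, adjusted p = 2.4e-05). Krt7 had 548 and 885 CPM against 2343 to 3339 in the YEJH lines. Krt8 and Krt18, the filament pair of simple epithelia, fell less, by log2 fold changes of -0.96 and -1.13, and stayed abundant, with 1703 and 1349 CPM against 2546 to 3489 for Krt8. Krt14, a keratin of basal cells, had a log2 fold change of -1.16 and no longer passed with either YEJG line left out.

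The E-box CAGGTG is the sequence that Zeb and Snail factors are known to bind, and it was searched on both strands (CAGGTG or CACCTG) of promoter windows of 300 bases. Windows come from RefSeq on GRCm38.p6 and span each gene's annotated start. Of 32851 windows 20.2% held the E-box, and by gene 22.6% of 27025. Of the 42 junction genes tested 27 had a window, and 17 of them (63%) held it. Of the 34 that fell 22 had a window, and 15 (68.2%) held it. These 22 make up most of the 27, so that comparing the 2 shares does not tell the groups apart. A match of letters is a description, and binding was not measured. The windows of Epcam (chr17:87635729-87636028, forward strand), Cldn4 (chr5:134946885-134947184, reverse strand), Cldn7 (chr11:69965171-69965470, forward strand) and Lsr (chr7:30973420-30973719, reverse strand) are shown because all 4 genes fell and hold it 2 times or more. Each reads 5′ to 3′ on the gene's strand, and capitals mark the E-box.
Epcam: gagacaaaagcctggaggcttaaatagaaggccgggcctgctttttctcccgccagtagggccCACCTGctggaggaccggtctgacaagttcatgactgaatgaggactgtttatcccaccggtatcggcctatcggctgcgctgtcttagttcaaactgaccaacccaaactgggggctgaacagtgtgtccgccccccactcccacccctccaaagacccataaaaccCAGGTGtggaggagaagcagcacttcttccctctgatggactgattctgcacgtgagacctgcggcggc
Cldn4: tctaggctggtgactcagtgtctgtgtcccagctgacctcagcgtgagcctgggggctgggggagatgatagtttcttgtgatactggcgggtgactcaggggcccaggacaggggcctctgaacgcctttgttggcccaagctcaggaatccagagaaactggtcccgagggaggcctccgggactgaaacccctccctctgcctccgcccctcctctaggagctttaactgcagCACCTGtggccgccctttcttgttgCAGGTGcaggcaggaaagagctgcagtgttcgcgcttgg
Cldn7: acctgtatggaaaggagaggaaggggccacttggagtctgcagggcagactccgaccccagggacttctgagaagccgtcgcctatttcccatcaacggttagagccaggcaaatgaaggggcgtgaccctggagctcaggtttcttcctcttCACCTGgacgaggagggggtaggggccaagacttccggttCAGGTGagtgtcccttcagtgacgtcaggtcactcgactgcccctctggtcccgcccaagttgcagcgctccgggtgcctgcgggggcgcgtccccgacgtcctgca
Lsr: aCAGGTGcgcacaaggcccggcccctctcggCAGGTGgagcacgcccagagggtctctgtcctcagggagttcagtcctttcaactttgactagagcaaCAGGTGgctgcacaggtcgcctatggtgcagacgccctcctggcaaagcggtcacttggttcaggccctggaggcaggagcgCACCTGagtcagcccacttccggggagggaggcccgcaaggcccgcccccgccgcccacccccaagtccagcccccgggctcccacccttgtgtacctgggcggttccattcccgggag
The Lsr window held the E-box 4 times and the others held it 2 times each.

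Mesenchymal genes moved the other way, though not all of them. Of 31 listed genes 25 were tested, of which 15 rose, 2 fell and 8 did not pass, with a median log2 fold change of 2.05. Vim, the intermediate filament protein vimentin, stood at 4112 CPM in YEJG-M1 and 2906 in YEJG-M2, against 238, 529.5, 410.4, 365 and 346 in YEJH-M1 to YEJH-M5. Both YEJG lines exceeded every YEJH line by more than 5-fold, and the log2 fold change was 3.22 ± 0.25 (SE) (edgeR quasi-likelihood, Benjamini-Hochberg, adjusted p = 0.00014).

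Zeb1, a repressor of E-cadherin, stood at 51.2 CPM in YEJG-M1 and 52.8 in YEJG-M2, against 5.25, 7.91, 5.89, 6.37 and 6.11 in YEJH-M1 to YEJH-M5. The 2 YEJG lines were alike and far above all YEJH lines, with a log2 fold change of 3.04 ± 0.13 (SE) (edgeR quasi-likelihood, Benjamini-Hochberg, adjusted p = 2.73e-05). Zeb2 had 43.3 and 35.9 CPM against 5.11 to 8 in the YEJH lines and a log2 fold change of 2.57. The Snail and Twist families did not rise as a whole. In the fit of all derived lines, the lung log2 fold changes were 1.09 for Snai2 and 1.47 for Twist2. They were -0.283 for Snai1 and 0.171 for Twist1. Whether these changes passed between the lung lines is not shown. The receptor tyrosine kinase Axl had 1378 and 1397 CPM against 479 to 908 and a log2 fold change of 0.99. Of the matrix genes on the list, Col5a1 had 111 and 171 CPM against 1.59 to 19.9 and Sparc 535 and 371 CPM against 13.9 to 124. Sparc no longer passed without YEJG-M1. The list was not uniform. Cdh2, which encodes N-cadherin, had 124 and 122 CPM against 53.9 to 159.8 in the YEJH lines, which overlapped, and Fn1, which encodes fibronectin, had 761 and 997 CPM against 553 to 1127 (adjusted p = 0.485 and 0.479, edgeR quasi-likelihood, Benjamini-Hochberg). Only YEJH-M3 overlapped the YEJG lines for Fn1, the other 4 lines had 553 to 699 CPM, and Fn1 passed without YEJH-M3 and under no other alternative. Tnc and Mmp14, also on the list, fell.

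**Figure D2:**
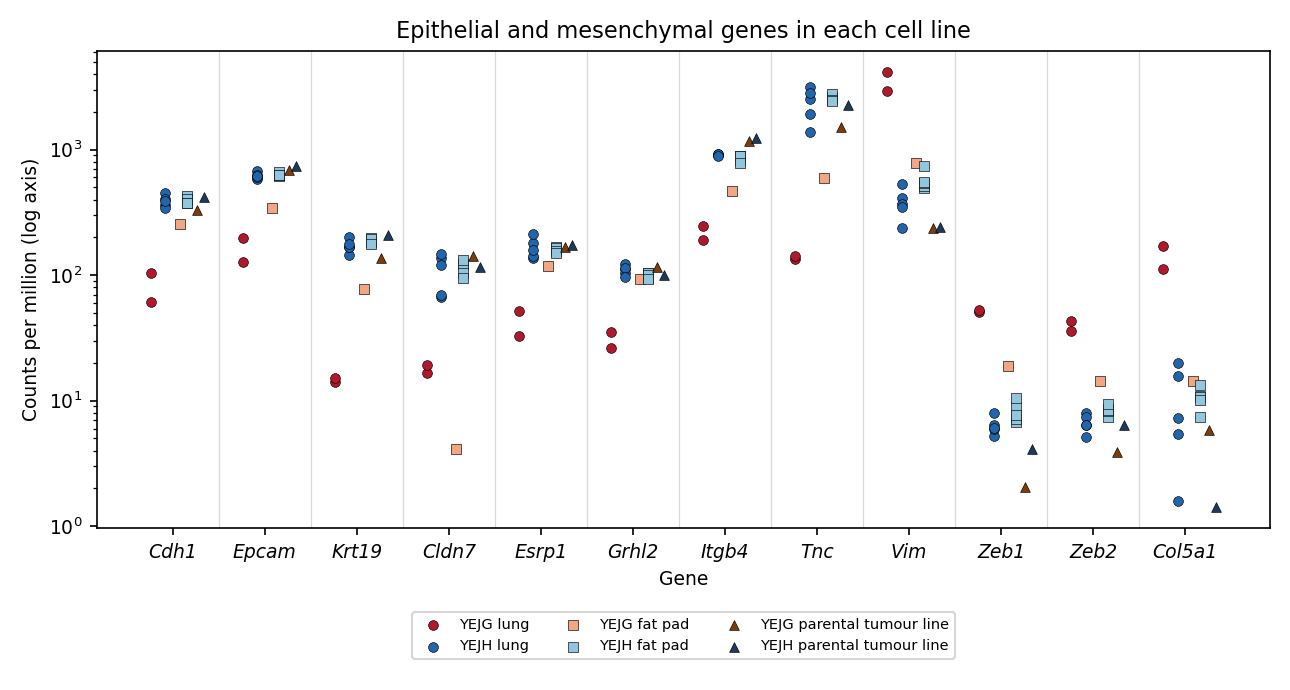
Level of 12 genes in each of 15 cell lines, in CPM on a log axis, with 1 point per line, coloured by origin and site. Both YEJG lung lines lie below all YEJH lung lines for the first 8 genes and above them for Vim, Zeb1, Zeb2 and Col5a1, and YEJG-FP lies between them for 10 of the 12, within the YEJH range for Col5a1 and below both groups for Cldn7, at 4.16 CPM.

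The label of these cells as mammary tumour cells was checked against cell type markers. All 10 markers of mammary tumour epithelium were detected and all fell, to a summed level of 3690 and 3780 CPM in YEJG-M1 and YEJG-M2, and 8650 to 11000 in the YEJH lines. Of 8 fibroblast markers 5 were tested and all 5 rose, to a sum of 76.6 and 89.4 CPM in YEJG-M1 and YEJG-M2, and 2.62 to 6.29 in the YEJH lines. Pdgfrb was the most abundant in YEJG-M2 and Pdgfra in the other 6 lines. Lum and Thy1 were at 0 in all 7 lines. Of the fibrillar collagen genes, Col1a1 had 3.92 and 1.11 CPM against 0.11 to 0.365, Col1a2 4.9 and 3.18 against 0.309 to 1.1, and Col3a1 5.77 and 2.07 against 0 to 0.269. The growth factor receptor gene Pdgfra had 41.7 and 8.98 CPM against 2.09 to 4.44. The 5 fibroblast markers tested are also on the mesenchymal list, so that both counts rest in part on the same genes, and the part of admixed fibroblasts in the result was not tested.

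Markers of other lung cells were low or did not separate the origins. The 11 leukocyte markers summed to less than 1 CPM in every line, and Laptm5, Cd3e, Cd3d, Cd4 and Cd8a were at 0. The 13 markers of macrophages and neutrophils summed to 4.53 and 9.6 CPM in YEJG-M1 and YEJG-M2, and 6.95 to 9.12 in the YEJH lines, of which Csf1r had 0.962 and 2.71 CPM against 2.18 to 4.83, while C1qa, C1qb, C1qc, Marco and Retnlg were at 0. Of 11 lung epithelial markers, Sftpc, Sftpb, Sftpa1, Nkx2-1 and Scgb1a1 were at 0, and their sum, 515 and 269 CPM in YEJG-M1 and YEJG-M2, and 245 to 500 in the YEJH lines, came mostly from the water channel Aqp5, at 513 and 253 CPM against 223 to 480.2. The 7 endothelial markers stayed below 1 CPM in sum, and 1 tested, Cdh5, was lower in YEJG lines. The 4 adipocyte markers summed to less than 0.03.

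Several genes of contact with the basement membrane were lower too. Lama3 and Lamb3 encode chains of epithelial laminin, and integrin alpha 6 beta 4 binds laminin in hemidesmosomes. Itgb4, the beta 4 subunit, stood at 190.4 CPM in YEJG-M1 and 244 in YEJG-M2, against 905, 903, 926, 927 and 886 in YEJH-M1 to YEJH-M5. The YEJH lines lay within a narrow range, and both YEJG lines were about 4-fold lower (log2 fold change -2.07 ± 0.099 (SE), adjusted p = 3.5e-05, edgeR quasi-likelihood, Benjamini-Hochberg). Of the laminin genes, Lama3 had 69.8 and 132 CPM against 259.5 to 598, and Lamb3 57 and 74.4 against 217 to 336. Their log2 fold changes were -1.98 and -2.04. Both were lower in each YEJG line, and Lama3 no longer passed without YEJG-M1. Itga6, the partner of Itgb4, fell by a log2 fold change of -0.89.

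Tnc, a matrix glycoprotein of tumour stroma and wounds, stood at 133 CPM in YEJG-M1 and 141 in YEJG-M2, against 1388, 2536, 3122, 2806 and 1934 in YEJH-M1 to YEJH-M5. Both YEJG lines were more than 9-fold below every YEJH line, and the log2 fold change was -4.10 ± 0.35 (SE) (edgeR quasi-likelihood, Benjamini-Hochberg, adjusted p = 0.000186). Of 35 basement membrane and matrix genes tested, 6 rose, 15 fell and 14 did not pass, with a median of -0.34. All genes tested had shares of 16.7% higher and 17.8% lower. Hspg2, the basement membrane proteoglycan perlecan, was among the matrix genes that rose, with 334 and 422 CPM against 128 to 221 and a log2 fold change of 1.08.

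Integrins bind cells to matrix. Of 19 tested, 4 rose, 8 fell and 7 did not pass, with a median of 0.03. The share that rose was near the 16.7% of all genes, and the share that fell was above the 17.8% of all genes. The collagen receptor subunit Itga2 had 10.9 and 22.3 CPM against 117 to 173 and a log2 fold change of -3.10, and the laminin receptor subunit Itga3 had -0.92. The fibronectin receptor subunit Itga5 rose, with 55.1 and 48.6 CPM against 12.7 to 30.2, and passed in all alternatives but the one without YEJG-M1. Itgb7, best known as a subunit of leukocyte integrins, stood at 196 CPM in YEJG-M1 and 76.9 in YEJG-M2, against 5.14, 6.43, 4.04, 7.38 and 1.61 in YEJH-M1 to YEJH-M5. Both YEJG lines were above all YEJH lines by more than 10-fold, although they differed from each other, with a log2 fold change of 4.80 ± 0.49 (SE) (edgeR quasi-likelihood, Benjamini-Hochberg, adjusted p = 0.000361).

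Proteases and their inhibitors on the list were tested for 39 genes, of which 8 rose, 16 fell and 15 did not pass, with a median of -0.30. The shares of all genes tested were 16.7% higher and 17.8% lower. Serpinb2 is an inhibitor of urokinase and Serpinb5 is known as maspin. Serpinb2 had 24.9 and 29.9 CPM against 222 to 378, and Serpinb5 41.1 and 46.4 against 166 to 198. Their log2 fold changes were -3.31 and -2.06. The metalloprotease gene Adam12 fell by -2.03, and Mmp14, the membrane-bound collagenase, by -0.38, on the same scale.

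The genes with the largest rise in YEJG lines were at or near 0 in YEJH lines. Ces1g, a carboxylesterase, had 16.4 and 15.1 CPM in YEJG-M1 and YEJG-M2 and 2 counts over all 5 YEJH lines, a ratio of 1690 with a 95% exact counting interval of 467 to 14000. Such intervals cover counting error only, and not the spread between libraries or lines. Pdgfrb, the receptor of platelet-derived growth factor B, stood at 20.2 CPM in YEJG-M1 and 73.9 in YEJG-M2, against 0.209, 0.0881, 0.196, 0.0226 and 0.0441 in YEJH-M1 to YEJH-M5. YEJG-M2 held more than YEJG-M1, and both were far above the YEJH lines (log2 fold change 8.72 ± 0.60 (SE), adjusted p = 9.44e-05, edgeR quasi-likelihood, Benjamini-Hochberg). Ephb2, a receptor of ephrin-B ligands, had 77.5 and 83.4 CPM in YEJG-M1 and YEJG-M2, against 1.1, 1.87, 1.64, 0.361 and 0.816 in the 5 YEJH lines. Its 2 YEJG values were alike. Tspan15, a tetraspanin partner of the protease ADAM10, had 43.9 and 36 CPM against 0.198 to 0.548, and Prune2 had 74.1 and 42.4 CPM against 0.022 to 0.209.

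Others of the 15 leading genes that rose have roles in matrix, cytoskeleton, transport and transcription. Fbln1, a matrix fibulin, had 18.1 and 5.98 CPM against 0 to 0.235. The cytoskeletal linker Epb41l3 had 34.6 and 47.2 CPM against 0.0226 to 0.887, and Myl9, a regulatory light chain of myosin, had 1.95 and 8.4 CPM against 0.0441 to 0.122. Chst1, a sulfotransferase of glycans, had 38.8 and 26.4 CPM against 0.022 to 0.97, and the glutamate transporter Slc1a3 had 7.86 and 3.96 CPM against 0.022 to 0.176. Atoh8, a basic helix-loop-helix transcription factor, had 12.6 and 6.4 CPM against 0.0783 to 0.245. In each of these genes both YEJG lines lay above all YEJH lines, as the rule for leading genes required.

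The 2 YEJG lines differed from each other in several of these genes. Speg, a kinase known from muscle, stood at 22.3 and 1.53 CPM against 0.0441 to 0.131 in the YEJH lines, and Emilin2, a matrix glycoprotein, at 48.5 and 6.18 CPM against 0.0489 to 0.463, so that YEJG-M1 was the higher line. Wnt5a, a ligand of non-canonical Wnt signalling, was likewise high in YEJG-M1, with 17.1 and 1.11 CPM against 0 to 0.342, and no longer passed without it. Rspo3, an amplifier of Wnt signals, was higher in YEJG-M2, with 2.58 and 9.91 CPM against 0 to 0.132, as was Sema3a, a secreted guidance molecule, with 7.98 and 46.4 CPM against 3.18 to 5.97. Sema3a no longer passed without YEJG-M2. Of the 1912 genes that passed with over 2-fold changes, YEJG-M1 and YEJG-M2 were more than 2-fold apart in 281, and the YEJH lines spanned more than 2-fold in 775. Among all genes tested 1019 had YEJG lines more than 2-fold apart.

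The genes with the largest fall had 0 to a few counts in the YEJG lines. Slc9a2, a sodium-proton exchanger, had 0 counts in both YEJG lines and between 0.441 and 21.5 CPM in YEJH lines, at least 214-fold lower against a floor of 3 counts over both lines. YEJH-M2 held the 21.5 and carries much of this bound, since the other 4 lines had 0.441 to 7.23. Slc9a2 no longer passed with either YEJG line left out. Adgre5, the adhesion receptor CD97, had 2 counts over the YEJG lines and between 3.88 and 20.1 CPM in the YEJH lines, a ratio of 496 with a 95% exact counting interval of 137 to 4100. Mest, an imprinted gene expressed from the paternal copy, also had 2 counts, and YEJH lines held 417 times as much, with an interval of 115 to 3450. Tnfrsf22, a decoy receptor of TRAIL, had 3 counts and a ratio of 154, with an interval of 52.6 to 748.

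Of the further leading genes that fell, Pogk, Obsl1 and Map3k21 had log2 fold changes of -6.53, -6.28 and -5.24. Some others encode surface proteins. Ulbp1, a ligand of the natural killer cell receptor NKG2D, stood at 1.48 CPM in YEJG-M1 and 1.73 in YEJG-M2, against 34.4, 27.7, 40.2, 37.4 and 33.5 in YEJH-M1 to YEJH-M5. The groups were more than 10-fold apart with little spread within each (log2 fold change -4.43 ± 0.19 (SE), adjusted p = 2.73e-05, edgeR quasi-likelihood, Benjamini-Hochberg). Cd55, which limits complement on the cell surface, had 0.211 and 0.111 CPM against 4.19 to 5.74 and a log2 fold change of -5.00. Ptprz1, a receptor tyrosine phosphatase, had 0.54 and 0.378 CPM against 7.59 to 15.3.

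Evc and Evc2 encode partner proteins at the base of the primary cilium that transmit Hedgehog signals, and their genes lie head to head. Evc2 stood at 0.634 CPM in YEJG-M1 and 0.0889 in YEJG-M2, against 14.1, 13.8, 13.6, 13.7 and 14.6 in YEJH-M1 to YEJH-M5. Evc stood at 0.657 CPM in YEJG-M1 and 0 in YEJG-M2, against 14.7, 12.4, 12.1, 11.5 and 13.8 in YEJH-M1 to YEJH-M5. Both genes were near 0 in both YEJG lines and almost constant over the YEJH lines. Their log2 fold changes were -5.31 ± 0.77 (SE) for Evc and -5.28 ± 0.51 (SE) for Evc2 (adjusted p = 0.00158 and 0.000276, edgeR quasi-likelihood, Benjamini-Hochberg). Over the alternatives the size of the fall varied widely, from -12.1 to -4.27 for Evc and from -7.24 to -4.44 for Evc2. Counts came from a kit that does not mark strand, so that reads of overlapping genes and of antisense partners cannot be told apart.
Their promoter windows are shown because both genes of the pair fell together, with capitals marking CG, 5′ to 3′ on each gene's strand, from RefSeq on GRCm38.p6. The Evc window is chr5:37336832-37337131 on the reverse strand and the Evc2 window chr5:37338228-37338527 on the forward strand, with 1096 bases between them.
Evc: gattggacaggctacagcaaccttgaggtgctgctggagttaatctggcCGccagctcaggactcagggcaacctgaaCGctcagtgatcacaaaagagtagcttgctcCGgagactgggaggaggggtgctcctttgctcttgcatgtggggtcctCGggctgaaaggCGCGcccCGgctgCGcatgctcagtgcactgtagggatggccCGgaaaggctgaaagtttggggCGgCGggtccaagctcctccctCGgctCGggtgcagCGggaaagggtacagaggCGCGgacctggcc
Evc2: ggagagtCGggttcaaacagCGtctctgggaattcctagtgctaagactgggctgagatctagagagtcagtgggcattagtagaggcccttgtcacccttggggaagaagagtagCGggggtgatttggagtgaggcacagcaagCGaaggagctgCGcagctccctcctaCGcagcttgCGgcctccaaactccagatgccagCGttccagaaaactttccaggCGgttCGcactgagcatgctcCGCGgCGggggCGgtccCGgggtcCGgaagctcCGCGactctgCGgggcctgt
The windows held CG 16 times in Evc and 19 times in Evc2, and the median window of all promoters held 7. A window with at least 16 was found in 33% and one with at least 19 in 28.1% of promoters. Methylation was not measured.

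The lists differed in how many members rose or fell, against 16.7% and 17.8% of all genes tested. Programme lists with at least 10 genes tested were compared, cell type markers left out. Among these, the shares of higher members were largest for mesenchymal transition and for amino acid synthesis with the integrated stress response. The shares of lower members were largest for cholesterol and fatty acid synthesis and for epithelial junctions.

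**Figure D3:**
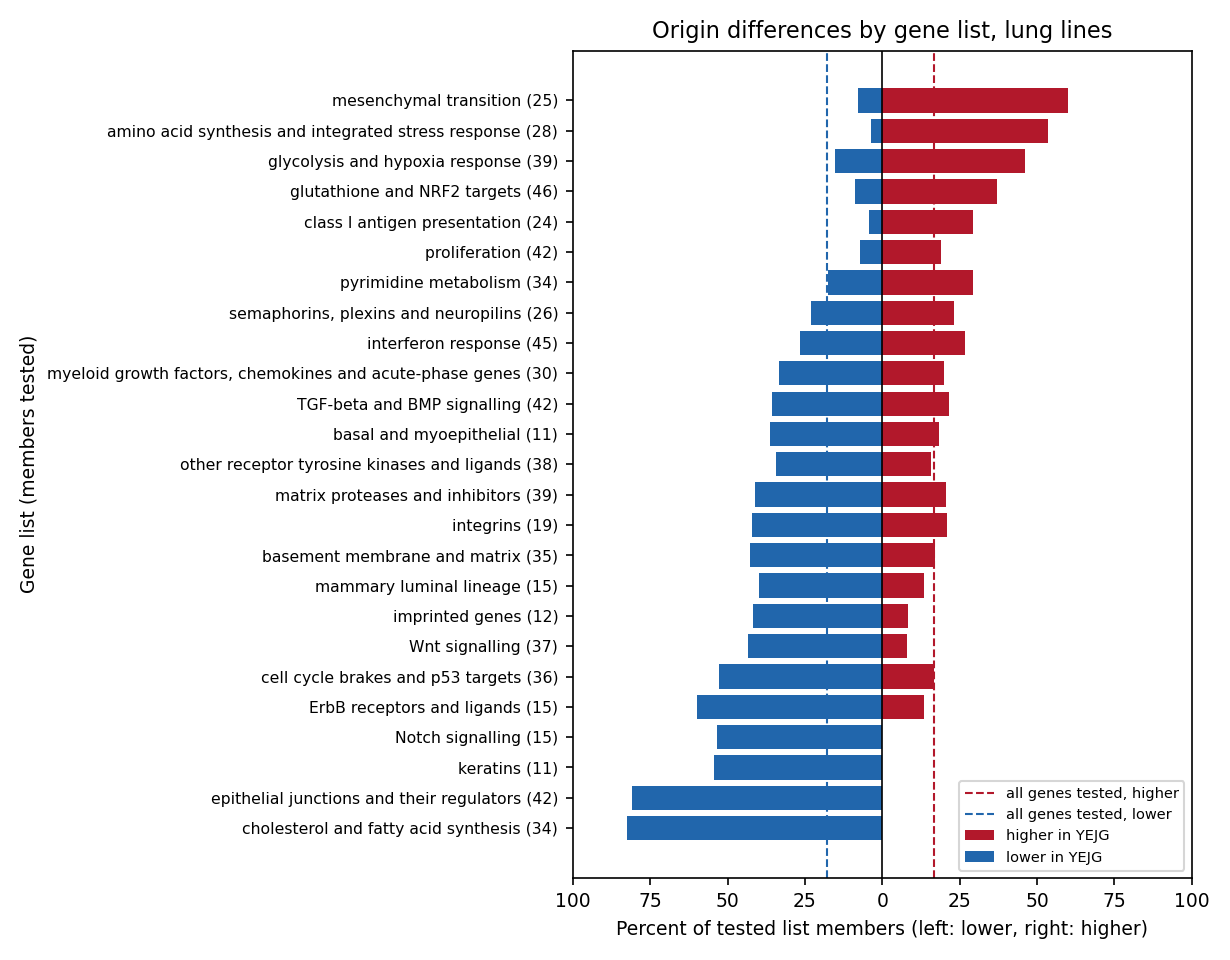
Percent of tested members of each gene list that were higher (right, red) or lower (left, blue) in YEJG than in YEJH lung lines at an adjusted p of 0.05 (edgeR), for lists with at least 10 members tested, whose numbers stand in parentheses. Dashed lines mark the shares of all 15892 genes tested, 16.7% higher and 17.8% lower, and the longest bars on the left are the 28 of 34 genes of cholesterol and fatty acid synthesis and the 34 of 42 junction genes.

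Cholesterol is made from acetyl-CoA through mevalonate, squalene and lanosterol, in a pathway whose genes share control by the transcription factor SREBP2. Of 34 genes tested on the list of cholesterol and fatty acid synthesis, 0 rose, 28 fell and 6 did not pass, with a median log2 fold change of -0.79. Hmgcs1, which starts the mevalonate pathway, stood at 73.7 CPM in YEJG-M1 and 85.5 in YEJG-M2, against 229, 227, 191, 198 and 147 in YEJH-M1 to YEJH-M5. The YEJG values lay below all YEJH values (log2 fold change -1.32 ± 0.18 (SE), adjusted p = 0.0012, edgeR quasi-likelihood, Benjamini-Hochberg). Of the enzymes that lead to squalene, Fdps had 19.5 and 18.8 CPM against 42.6 to 62, and Fdft1 32.9 and 31.5 against 59.8 to 101. Cyp51, which acts on lanosterol, had 60.5 and 70.8 CPM against 130.5 to 199.6. Log2 fold changes of these 3 genes ran from -1.44 for Fdps to -1.33 for Fdft1. Sqle, the squalene epoxidase, had 119 and 123 CPM against 123 to 224 and did not pass (adjusted p = 0.0815, edgeR quasi-likelihood, Benjamini-Hochberg).

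More genes of glycolysis and the response to low oxygen rose than fell, and the share that fell was below the 17.8% of all genes. Of 39 tested, 18 rose, 6 fell and 15 did not pass, with a median of 0.32. Egln3, an oxygen-sensing prolyl hydroxylase, stood at 14.5 CPM in YEJG-M1 and 10 in YEJG-M2, against 0.391, 0.375, 1.25, 0.564 and 0.441 in YEJH-M1 to YEJH-M5. The YEJG values exceeded all YEJH values by about 8-fold or more (log2 fold change 4.34 ± 0.41 (SE), adjusted p = 0.000258, edgeR quasi-likelihood, Benjamini-Hochberg). Bnip3, which takes part in the removal of mitochondria, had 72 and 40.8 CPM against 9.37 to 14.7, and Pdk1, which inhibits pyruvate dehydrogenase, had 65.4 and 45.5 CPM against 10.2 to 15.9. The phosphofructokinase genes Pfkm and Pfkp rose by log2 fold changes of 1.31 and 1.26, and Pfkm no longer passed without YEJG-M1. Other genes that low oxygen is known to induce were lower. Here Vegfa had 37.8 and 36.3 CPM against 44.5 to 72.2, Ndrg1 72.6 and 86.1 against 121 to 166, and Ddit4 33.7 and 40.2 against 48.9 to 79.7, with log2 fold changes of -0.74, -0.92 and -0.86. Ddit4 no longer passed without YEJG-M1, nor Vegfa without either YEJG line. Eno1, an abundant enzyme of glycolysis, did not pass. It had 1742 and 1584 CPM against 1111 to 1452 (adjusted p = 0.0516, edgeR quasi-likelihood, Benjamini-Hochberg) and passed in 10 of 21 alternatives.

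Of amino acid synthesis genes and targets of the integrated stress response, more rose than fell. Of 28 tested, 15 rose, 1 fell and 12 did not pass, with a median of 0.41. Aldh1l2, a mitochondrial enzyme of folate metabolism, stood at 44.6 CPM in YEJG-M1 and 25.9 in YEJG-M2, against 3.65, 4.08, 6.53, 7.4 and 5.33 in YEJH-M1 to YEJH-M5. YEJG lines were at least 3 times any YEJH line (log2 fold change 2.71 ± 0.29 (SE), adjusted p = 0.000404, edgeR quasi-likelihood, Benjamini-Hochberg). Psat1, of serine synthesis, had 791 and 719 CPM against 286 to 394, and Herpud1, of protein removal from the endoplasmic reticulum, 72.1 and 54 CPM against 18.9 to 25.9. The transcript of Atf4, the transcription factor of this response, had 370.5 and 360.5 CPM against 270.1 to 342. It did not pass (log2 fold change 0.24 ± 0.089 (SE), adjusted p = 0.0694, edgeR quasi-likelihood, Benjamini-Hochberg) and passed in 9 of 21 alternatives.

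Genes of glutathione metabolism and targets of NRF2, the transcription factor of the oxidative stress response, were tested for 46 members, of which 17 rose, 4 fell and 25 did not pass, with a median of 0.21. Aldh3a1, an aldehyde dehydrogenase, stood at 349.8 CPM in YEJG-M1 and 298 in YEJG-M2, against 78.8, 41.2, 22, 45.3 and 18.6 in YEJH-M1 to YEJH-M5. The lowest YEJG line was above the highest YEJH line by more than 3-fold (log2 fold change 2.97 ± 0.47 (SE), adjusted p = 0.00226, edgeR quasi-likelihood, Benjamini-Hochberg). Fth1, the heavy chain of ferritin, had 1576 and 1313 CPM against 374 to 528 and a log2 fold change of 1.65. Of detoxifying enzymes, Gstm1 had 15.4 and 6.11 CPM against 1.2 to 3.9, and Nqo1 151 and 127 against 24.7 to 82. Gstm1 no longer passed without YEJG-M1, and Nqo1 no longer passed without either YEJG line, without YEJH-M3 or without YEJH-M5.

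**Figure D4:**
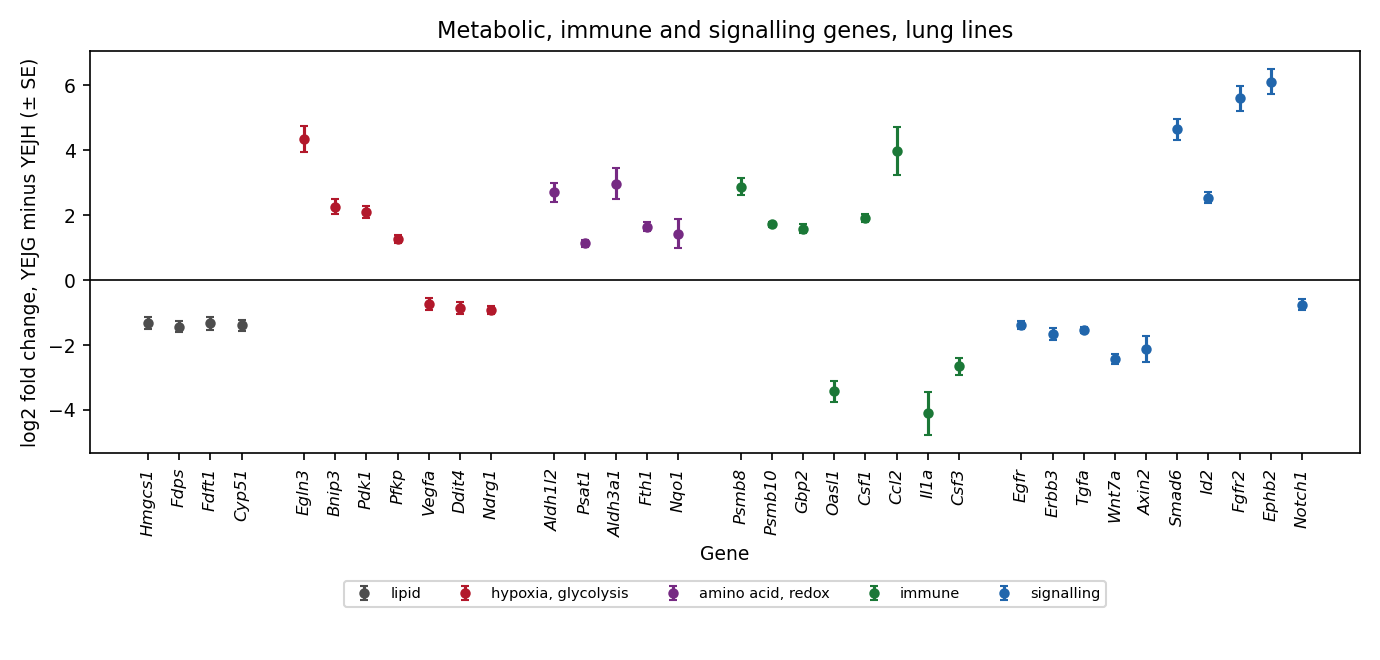
Log2 fold change of YEJG minus YEJH lung lines with its standard error for 34 genes of lipid, oxygen and amino acid metabolism, immune signals and receptors (2 against 5 lines, edgeR), with points above 0 for genes higher in YEJG lines. The lipid genes all lie below 0, and the genes of low oxygen and of immune signals lie on both sides.

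More genes of the ErbB family fell than rose. ErbB receptors and their EGF-like ligands drive growth of mammary epithelium. Of 15 tested, 2 rose, 9 fell and 4 did not pass, with a median of -0.63. Egfr stood at 34.5 CPM in YEJG-M1 and 45.4 in YEJG-M2, against 106, 101, 114, 103 and 94.8 in YEJH-M1 to YEJH-M5. Levels in both YEJG lines were more than 2-fold below every YEJH line (log2 fold change -1.38 ± 0.12 (SE), adjusted p = 0.000175, edgeR quasi-likelihood, Benjamini-Hochberg). The receptor Erbb3 had 21.5 and 29.9 CPM against 66.7 to 95.4. Of the ligands, Tgfa had 29.7 and 29.7 CPM against 79.2 to 94.9, Btc 5.19 and 6.93 against 12.1 to 17.2, and Epgn 2.72 and 4.98 against 11.7 to 38.4. Epgn no longer passed without YEJG-M1.

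Other receptor tyrosine kinases and their ligands were tested for 38 genes, of which 6 rose, 13 fell and 19 did not pass, with a median of -0.12. As stated, 16.7% of all genes rose and 17.8% fell. Fgfr2, a receptor of fibroblast growth factors, had 23.1 and 10.8 CPM in YEJG-M1 and YEJG-M2, against 0.287, 0.198, 0.269, 0.361 and 0.617 in the 5 YEJH lines. It was low in every YEJH line, with a log2 fold change of 5.60. Fgfbp1, which releases fibroblast growth factors from matrix, fell by -1.71, on the same scale.

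Wnt genes fell more often than they rose. Of 37 tested, 3 rose, 16 fell and 18 did not pass, with a median of -0.43. The ligand Wnt7a stood at 19.4 CPM in YEJG-M1 and 27.7 in YEJG-M2, against 119, 129, 122, 123 and 143 in YEJH-M1 to YEJH-M5. Both YEJG lines were more than 4-fold below all YEJH lines (log2 fold change -2.44 ± 0.15 (SE), adjusted p = 6.95e-05, edgeR quasi-likelihood, Benjamini-Hochberg). Of the feedback inhibitors of canonical Wnt signals, Axin2 had 1.31 and 1.91 CPM against 3.81 to 9.07, and Nkd2 0.751 and 0.2 against 9.63 to 31.4. Axin2 no longer passed without YEJG-M1.

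Of 15 Notch genes tested, 0 rose, 8 fell and 7 did not pass, with a median of -0.69. The 8 that fell were 4 to 8 over the alternatives. The receptor Notch1, the ligands Dll1 and Jag1 and the target Hes1 had log2 fold changes of -0.76, -1.27, -1.16 and -0.69. Notch1 lost the call without either YEJG line, and Jag1 without YEJG-M1. In the TGF-beta and BMP list 42 genes were tested, of which 9 rose, 15 fell and 18 did not pass, with a median of -0.21. Of genes that BMP signals are known to induce, Smad6 had 6.5 and 7.04 CPM against 0.147 to 0.397, and Id2 48.1 and 34.4 against 5.8 to 8.61, and both rose. Inhba, the subunit of activin A, fell, with 72.4 and 107 CPM against 246 to 352. Of 26 semaphorins, plexins and neuropilins tested, 6 rose, 6 fell and 14 did not pass, with a median of -0.05. Beside these lists, 16.7% of all genes tested rose and 17.8% fell.

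Among secreted signals to myeloid cells the share that rose was near the 16.7% of all genes, and the share that fell was above the 17.8% of all genes. Of 30 myeloid growth factors, chemokines and acute-phase genes tested, 6 rose, 10 fell and 14 did not pass, with a median of -0.71. Csf1, the growth factor of macrophages, stood at 545 CPM in YEJG-M1 and 528 in YEJG-M2, against 162, 112, 154, 131 and 155 in YEJH-M1 to YEJH-M5. Every YEJH line was more than 3-fold below both YEJG lines (log2 fold change 1.91 ± 0.13 (SE), adjusted p = 8.93e-05, edgeR quasi-likelihood, Benjamini-Hochberg). Csf3, the growth factor of neutrophils, stood at 6.48 CPM in YEJG-M1 and 10.4 in YEJG-M2, against 44.1, 63.3, 46.9, 65.3 and 45.3 in YEJH-M1 to YEJH-M5. It was lower in both YEJG lines (log2 fold change -2.65 ± 0.26 (SE), adjusted p = 0.000308, edgeR quasi-likelihood, Benjamini-Hochberg). Of the chemokines of monocytes, Ccl2 had 34.8 and 17.6 CPM against 0.157 to 4.03, and Cx3cl1 32.3 and 28 against 5.11 to 12.6, and both rose. Il1a, the alarm cytokine interleukin 1 alpha, fell, with 5.19 and 9.09 CPM against 65.5 to 236, and the cytokine Lif fell by a log2 fold change of -1.74.

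Of 24 genes of class I antigen presentation, all of them tested, 7 rose, 1 fell and 16 did not pass, with a median of 0.19. Of the catalytic subunits of the immunoproteasome, Psmb8 had 26.9 and 34.8 CPM against 2.82 to 5.33, and Psmb10 50.4 and 51.9 against 14.4 to 16.4. The class I heavy chain H2-D1 was the 1 that fell, by a log2 fold change of -0.27 (adjusted p = 0.0163, edgeR quasi-likelihood, Benjamini-Hochberg), and it no longer passed without either YEJG line, in run A alone, with upper-quartile factors or with the library total. It shares sequence with other class I genes, so that its count is uncertain. Of 45 interferon response genes, 12 rose, 12 fell and 21 did not pass, with a median of -0.22. Shares of all genes tested were 16.7% higher and 17.8% lower. Gbp2 rose by a log2 fold change of 1.59, while Oasl1, Isg15 and Ifih1 fell by -3.43, -1.84 and -2.09, on the same scale. Oasl1 had 1.1 and 1.29 CPM against 8.92 to 16.3.

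Proliferation genes rose about as often as all genes, of which 16.7% did. Of 42 tested, 8 rose, 3 fell and 31 did not pass, with a median of 0.07. Over the alternatives 3 to 14 rose and 1 to 8 fell. Mki67 had 498 and 552 CPM against 542 to 635 and did not pass (adjusted p = 0.118, edgeR quasi-likelihood, Benjamini-Hochberg), and Top2a and Cdc20 rose by log2 fold changes of 0.28 and 0.37. Top2a lost the call without YEJG-M1 and in run A. Birc5, which encodes survivin, fell instead, with 193 and 217 CPM against 356 to 439 and a log2 fold change of -0.96. Of 36 cell cycle brakes and p53 targets, 6 rose, 19 fell and 11 did not pass, with a median of -0.34. Cdkn1a, the kinase inhibitor p21, had 29.2 and 37.6 CPM against 55.2 to 84.2, and Btg2, Trp53inp1 and Pmaip1, p53 targets of arrest and cell death, fell by log2 fold changes of -1.37, -1.38 and -2.48. Pmaip1 lost the call without YEJG-M1.

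Immediate early genes answer growth factors, and also handling of the cells, within minutes. Of 15 tested, 4 rose, 8 fell and 3 did not pass, with a median of -0.56. Of those that fell, Fos had 1.1 and 2.13 CPM against 10.3 to 17.9, Atf3 2.93 and 4.75 against 15.7 to 20.5, and Nr4a1 3.99 and 4.22 against 11.9 to 16.2. Jun and Fosl1 rose by log2 fold changes of 0.45 and 0.56. Jun no longer passed without YEJG-M1 or in run A. The part of the harvest in these differences was not tested. Of 13 genes encoded in mitochondria 9 were tested and did not pass, with a median log2 fold change of 0. Of 6 genes of X inactivation and the Y chromosome 1 was tested and did not pass.

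Upp1, which encodes uridine phosphorylase, did not pass between the origins, with a log2 fold change of -0.47 ± 0.20 (SE) (adjusted p = 0.108, edgeR quasi-likelihood, Benjamini-Hochberg). It passed in 5 of 21 alternatives, over which the fold change ran from -0.689 to -0.249. In the fit of 13 lines it was -0.452 in lung and -0.637 in the fat pad. Of 34 pyrimidine metabolism genes tested, 10 rose, 6 fell and 18 did not pass, with a median of -0.01. For this list and those below, the shares of all genes tested were 16.7% higher and 17.8% lower. The nucleoside transporter Slc29a1 rose, with 194 and 189 CPM against 69.4 to 106. The thymidine kinase Tk1 and the surface nucleotidase Nt5e fell. Tk1 had 169 and 180.3 CPM against 312 to 364, and Nt5e 38.3 and 58.1 against 81.3 to 129.6. Of 15 mammary luminal genes, 2 rose, 6 fell and 7 did not pass (median -0.63), and of 11 basal and myoepithelial genes, 2 rose, 4 fell and 5 did not pass (median -0.50). Of 12 imprinted genes tested, 1 rose, 5 fell and 6 did not pass, with a median of -1.03. They include, besides Mest, the paternally silenced Igf2r and the maternally expressed Phlda2, which fell by log2 fold changes of -1.87 and -1.76, and Impact, which rose by 0.56. Igf2r no longer passed without YEJG-M2, nor Impact without YEJG-M1. Of 39 Hox genes 3 were tested and did not pass.

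By chromosome, far more genes of chromosome 19 were higher than lower in YEJG lines. Of 478 genes tested there, 230 were higher and 38 lower, and the median log2 fold change was 0.32. Relative to the mean of the 7 lung lines, the chromosome's median log2 level was 0.27 in YEJG-M1 and 0.19 in YEJG-M2, and between -0.13 and -0.06 in the YEJH lines. On chromosome 15, 147 of 639 genes were higher and 55 lower, with a median of 0.21. There the lines did not split by origin, since YEJG-M1 had 0.22, YEJG-M2 0.1, YEJH-M2 0.11, YEJH-M3 -0.19 and YEJH-M5 -0.27. Medians of the other chromosomes lay between -0.08 and 0.03.

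Fat-pad lines of the same origins were compared with the lung lines. Many junction genes and vimentin differed more between the lung lines than between YEJG-FP and the YEJH fat-pad lines, while the median of the cholesterol list was below 0 at both sites. The difference between origins was tested for a change with site over the 13 derived lines. Of 17042 genes, 2275 (13.3%) passed an adjusted p of 0.05 (edgeR quasi-likelihood, Benjamini-Hochberg). YEJG origin has 1 fat-pad line, whose spread was taken from the other groups, and what is particular to that line cannot be told apart from site. Of the 1912 genes that passed in lung lines with over 2-fold changes, 836 passed here too. Those genes were chosen by their difference in lung lines, which also enters the test of site.

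Vim had 777 CPM in YEJG-FP and 491 to 746 in the 5 YEJH fat-pad lines, so that the origins differed little in the fat pad. The lung difference exceeded the fat-pad difference by 2.77 ± 0.45 (SE) on the log2 scale (adjusted p = 0.00207, edgeR quasi-likelihood, Benjamini-Hochberg). For Zeb1 the fat-pad levels were 18.9 CPM in YEJG-FP and 6.74 to 10.5 in the 5 YEJH fat-pad lines. YEJG-FP was above all YEJH fat-pad lines, but by less than in lung (difference of 1.84 ± 0.29 (SE), adjusted p = 0.00177, edgeR quasi-likelihood, Benjamini-Hochberg). Cdh1 had 255 CPM in YEJG-FP and 374 to 427 in the 5 YEJH fat-pad lines and Krt19 77.7 CPM in YEJG-FP and 177 to 197 in the 5 YEJH fat-pad lines. Both fell further in lung, by differences of -1.59 ± 0.25 (SE) and -2.29 ± 0.16 (SE) (adjusted p = 0.00189 and 1.65e-05, edgeR quasi-likelihood, Benjamini-Hochberg). Of 42 junction genes 26 passed the test of site, with medians of -1.68 in lung and -0.43 in the fat pad from the same fit.

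Cldn7 went the other way. It had 4.16 CPM in YEJG-FP and 94 to 133 in the 5 YEJH fat-pad lines, so that YEJG-FP was lower than even the YEJG lung lines, and the difference between sites was 2.21 ± 0.55 (SE) (adjusted p = 0.0196, edgeR quasi-likelihood, Benjamini-Hochberg), which was lost in run B. Evc and Evc2 were at full level in the fat-pad line of YEJG origin, with 11.9 CPM in YEJG-FP and 12.2 to 14.5 in the 5 YEJH fat-pad lines for Evc and 16.6 CPM in YEJG-FP and 12.7 to 14.3 in the 5 YEJH fat-pad lines for Evc2. The sites differed by -5.15 ± 0.66 (SE) and -5.56 ± 0.44 (SE) (adjusted p = 0.000566 and 3.2e-05, edgeR quasi-likelihood, Benjamini-Hochberg). Over the alternatives these differences ran from -12 to -4.14 for Evc and from -7.54 to -4.74 for Evc2. Epb41l3 was higher in YEJG lung lines but not in YEJG-FP, with 0.318 CPM in YEJG-FP and 0.0984 to 0.722 in the 5 YEJH fat-pad lines and a difference of 7.32 ± 1.43 (SE) (adjusted p = 0.0059, edgeR quasi-likelihood, Benjamini-Hochberg).

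Tnc and Itgb4 were lower in YEJG-FP as well, with 589 CPM in YEJG-FP and 2452 to 2786 in the 5 YEJH fat-pad lines for Tnc and 471 CPM in YEJG-FP and 779 to 889.5 in the 5 YEJH fat-pad lines for Itgb4, and lower still in lung, by -1.96 and -1.20 on the log2 scale (adjusted p = 0.00422 and 0.000262, edgeR quasi-likelihood, Benjamini-Hochberg). Bnip3 had 14.3 CPM in YEJG-FP and 12 to 14 in the 5 YEJH fat-pad lines, and its rise in lung exceeded that in the fat pad by 2.11 (adjusted p = 0.00274, edgeR quasi-likelihood, Benjamini-Hochberg). Csf1, Psmb8 and Wnt7a had differences of 1.45, 4.55 and -2.03 (adjusted p = 0.000797, 0.000671 and 4.69e-05, edgeR quasi-likelihood, Benjamini-Hochberg). Psmb8 was lower in YEJG-FP than in the YEJH fat-pad lines, with 1.52 CPM in YEJG-FP and 3.34 to 6.04 in the 5 YEJH fat-pad lines.

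Of 34 genes of the cholesterol list 4 passed the test of site (11.8%, a share near the 13.3% of all genes), with medians of -0.78 in lung and -0.53 in the fat pad. Il1a, Ccl2, Itga2 and Sparc had differences of -1.06, 0.36, -0.67 and 0.56 that did not pass (adjusted p = 0.43, 0.871, 0.217 and 0.78, edgeR quasi-likelihood, Benjamini-Hochberg). In YEJG-FP Il1a was at 7.88 against 50.6 to 80 CPM in YEJH fat-pad lines and Ccl2 at 21.1 against 0.98 to 2.98, and for both the sides were those seen in lung lines. A difference that did not pass does not show that the sites are alike. Of 39 genes of glycolysis and the response to low oxygen 16 passed the test of site, with medians of 0.34 in lung and 0.07 in the fat pad.

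**Figure D5:**
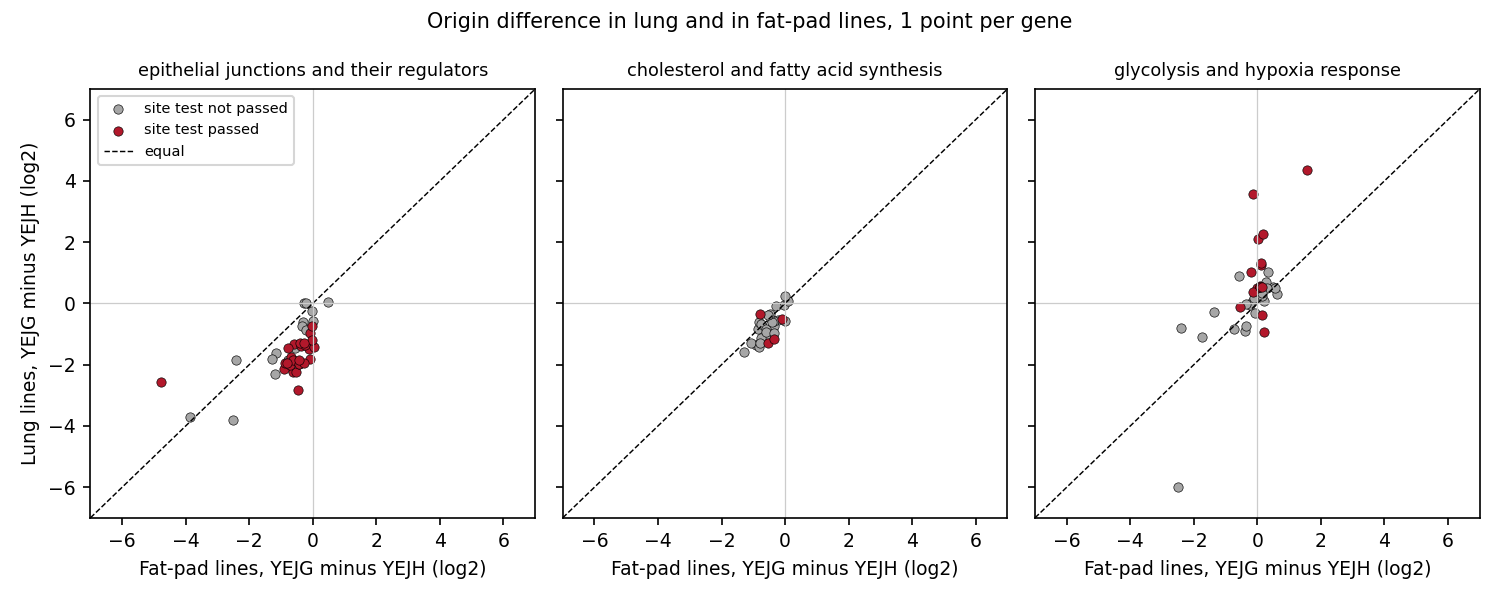
Difference between origins (YEJG minus YEJH, log2) in lung lines on the vertical axis and in fat-pad lines on the horizontal axis, from 1 fit over 13 lines, with 1 point per gene of 3 lists and red points for genes that passed the test of site. Most junction genes lie below the dashed line of equal differences, with medians of -1.68 in lung and -0.43 in the fat pad, while cholesterol genes lie closer to it, with medians of -0.78 and -0.53.

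The parental lines, 1 per origin, show the origins before transplantation, and their difference was not tested. Of the 5475 genes that passed between the lung lines, 3723 (68%) had a parental difference of the same sign, against 61.6% of all genes tested. Of the 1912 with over 2-fold changes, the parental lines differed by over 2-fold with the same sign in 289 and with the opposite sign in 198. Over all 1912, 1124 (58.8%) had the same sign, below the share of all genes. Vim was alike in the parental lines, at 238 in YEJG and 242 in YEJH (CPM), and Cdh1 was at 330.1 in YEJG and 419 in YEJH. Zeb1 was at 2.06 in YEJG and 4.09 in YEJH, both under the level of any lung line. Evc2 was at 12.7 in YEJG and 15.4 in YEJH. Mest was at 7.4 in YEJG and 5.76 in YEJH. Epb41l3 was at 4.57 in YEJG and 12.8 in YEJH, above every derived line but YEJG-M1 and YEJG-M2.

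Other differences were present in the parental lines. Adgre5 was at 0.24 in YEJG and 13.7 in YEJH (CPM) and Ulbp1 at 3.37 in YEJG and 31.9 in YEJH. Oasl1 was at 1.79 in YEJG and 19.1 in YEJH, Itga2 at 49.8 in YEJG and 196 in YEJH and Axin2 at 1.52 in YEJG and 11.5 in YEJH. For these 5 genes the YEJG parental line was the lower of the pair, as were the YEJG lung lines. Hmgcs1 was about level, at 106 in YEJG and 111 in YEJH. Csf1 was lower in the YEJG parental line, at 98.6 in YEJG and 185 in YEJH, and higher in the YEJG lung lines. Krt14 was higher in the YEJG parental line, at 1376 in YEJG and 726 in YEJH, and lower in the YEJG lung lines.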

How the data were processed

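RNA of 45 libraries from 15 lines was measured. The gene counts are used as deposited. According to the submitters' notes, the authors checked reads with FastQC, aligned them with HISAT2, sorted them with SAMtools 1.2 and made the counts with HTSeq. The notes name the human build GRCh38, while the gene identifiers are those of mouse. The annotation release is not given in the sources used here. Of 54838 genes 50764 (92.6%) matched the mouse annotation at hand. The share of reads not on genes was 31.69% to 35.63% in lung libraries, and 43.3% in library 2 of YEJH-M3.

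Members and lists were chosen with earlier results of these data known. Counts were added up per line. The test between lung origins used edgeR 4.0.16 (filterByExpr, TMM factors, quasi-likelihood fit, Benjamini-Hochberg, threshold 0.05) in R 4.3.3. The same test of origin by site used 13 lines, and parental lines were subtracted without a test (prior count 2). A standard error is the log2 fold change divided by the square root of the F statistic. Principal components came from log2 CPM of all lines. The pipeline was tested on simulated data with known changes of 1.5-fold, 2-fold and 4-fold. The edgeR test between lung origins recovered 28.4%, 43.3% and 86.4% of them. The test of origin by site recovered 16.4%, 38.8% and 66.7%, so that genes that did not pass may still differ. Figures were drawn with matplotlib 3.10.9 in Python 3.11.15.

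The named genes are the 15 per direction with the largest change among those that passed, with both YEJG lines outside the YEJH range and at least 5 CPM in the higher origin. Others are up to 5 per direction and up to 2 not passing from each gene list, Upp1, and the cell type markers. The text names a selection of these. Snai1, Snai2, Twist1 and Twist2 were added after their values were seen. Their fold changes come from the fit of 13 lines, and they were not followed over the alternatives. Alternatives were RLE, upper-quartile and total-count scaling, DESeq2 1.42.0, no filter, a filter of 1 CPM in all lines, each lung line left out, each sequencing run (as taken from the prefixes of library names), limma 3.58.1 with libraries apart, and 1 fit of all 13 lines. The alternative without library 2 of YEJH-M3 was chosen after seeing the data.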

Additional observations from a re-analysis of the deposited data

Results flagged for a closer look

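Among the 5 YEJH lung lines, a line was singled out when its gap to the nearest other line exceeded 0.71 of the whole range (Dixon's value for 5). Of 143 groups tested 8 were, and chance flags about 1 in 20 groups. YEJH-M1 stood high for Cldn3, at 338 CPM against 261 to 279 in the other 4 lines, and for Col1a2, at 1.1 against 0.309 to 0.485. It stood low for Jun, at 69.2 against 81.8 to 84.1. YEJH-M3 stood high for Fn1, at 1130 against 553 to 699, for Egln3, at 1.25 against 0.375 to 0.564, and for Col3a1, at 0.269 against 0 to 0.0661. YEJH-M4 stood high for Serpinb2, at 378 against 222 to 259, and YEJH-M2 low for Cd55, at 4.19 against 5.31 to 5.74. The cause was not tested.

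The difference between origins was not the same in lung and fat-pad lines for 14 of the 18 named genes examined for it (edgeR quasi-likelihood test of the interaction, Benjamini-Hochberg), against 13.3% of all 17042 genes. The 18 were chosen among genes named for the lung comparison, and YEJG origin has 1 fat-pad line. Their lung difference also enters this test, so that the 13.3% is not a like baseline for the 14 genes. As log2 differences, lung minus fat pad, these were 2.77 for Vim, 1.84 for Zeb1, -1.59 for Cdh1, -2.29 for Krt19 and 2.21 for Cldn7. They were -5.15 for Evc, -5.56 for Evc2, -1.96 for Tnc, -1.2 for Itgb4 and 7.32 for Epb41l3. They were 2.11 for Bnip3, 1.45 for Csf1, 4.55 for Psmb8 and -2.03 for Wnt7a.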

How the results depend on the processing

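The count of 5475 genes between lung origins ran from 3123 without YEJG-M1 to 5544 without YEJH-M1 when lung lines were left out in turn, and 3123 was the only count more than 1.5-fold off. That fit has a single YEJG line. With YEJG-M2 left out 4012 genes passed. Scaling with RLE, upper-quartile or total counts gave 5471, 5692 and 5610, DESeq2 5965, no filter 5120 and the strict filter 4622. Upper-quartile and total counts shifted the median log2 fold change to 0.059 and 0.0598, so that 57.2% and 56.9% of the genes that passed were higher in YEJG lines, against 48.4%. Libraries kept apart in limma gave 6128, and 6302 with run as covariate. Repeat numbers as a replicate block gave 5999, but they do not pair libraries, with correlations of -0.138, -0.499 and 0.251 for equal numbers. One fit of 13 lines gave 7354. No gene that passed was called in the opposite direction under any alternative, and 54.4% to 99.8% of them were kept.

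Of 142 named genes followed over the alternatives, 10 did not pass between lung origins. Of the others 110 passed under every alternative that tested them, and some genes were not tested in all. Another 22 were lost under at least 1, most of them without YEJG-M1, where a single YEJG line is left. Of the 10 genes, 8 passed under some alternative. Aqp5 reversed without YEJG-M1, from 0.19 to -0.396, and reached 0.627 without YEJG-M2. Over the alternatives, 32 to 36 junction genes were lower in YEJG (34 in the report). Cholesterol genes lower were 19 to 30 (28), matrix genes lower 6 to 19 (15), and interferon genes lower 6 to 14 and higher 5 to 15 (12 each). Notch genes lower were 4 to 8 (8), ErbB genes 7 to 9 (9) and other receptor tyrosine kinase genes 5 to 14 (13). Cell cycle brakes and p53 targets lower were 11 to 21 (19), Wnt genes 10 to 19 (16) and mammary luminal genes 2 to 8 (6). Myeloid signals lower were 6 to 11 (10), and TGF-beta and BMP genes higher 4 to 12 (9). Mesenchymal genes higher were 9 to 17 (15), amino acid and stress response genes 8 to 19 (15), glutathione genes 7 to 22 (17) and glycolysis and hypoxia genes 11 to 23 (18).

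The 2275 genes that depended on site ran from 2079 without YEJH-M4 to 2718 without YEJH-M1 when YEJH lung lines were left out in turn. They were fewer still without YEJG-M1, a fit with a single YEJG lung line. Other alternatives gave 1726 in run A, 1569 in run B, 2268 with RLE, 2971 with DESeq2 and 2572 without library 2 of YEJH-M3. Ccl2, which did not pass, reversed without YEJG-M1, from 0.36 to -0.227, and reached 1.04 without YEJH-M2. The site difference of Itga2 ran from -1.28 to -0.254 and passed only without YEJG-M2, a fit with a single YEJG lung line. The cause was not tested. The share of genes with the same parental sign was 67.3% in run A and 67.1% in run B, against 68%.

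The main limit is the number of lines. YEJG origin was seen in 2 lung lines, 1 fat-pad line and 1 parental line, which cannot show how much lines of that origin vary. Counts of genes that passed depend on which of the 2 lung lines was included. Lines were grown in dishes, and the labels do not say which mouse gave each line. Genes with few counts have wide intervals.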
